A study of Mus musculus with 9 samples.

Results

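The neuronal activity effector genes described here are *Arc*, *Homer1*, *Npas4*, *Nptx1*, *Nptx2*, *Bdnf*, *Nrn1*, *Plk2*, *Plk3* and *Pcdh8*. They were chosen by symbol as genes known to be transcribed in response to neuronal activity, with earlier results of these data known. All 10 symbols were found among the 37411 genes counted. The cells were GT1-7-OX1 cells, a mouse hypothalamic neuronal line that was made with SV40 T antigen under the GnRH promoter and that stably carries human orexin receptor 1, introduced by a lentivirus with a CMV promoter. The transduced cells with the brightest reporter signal were expanded, so all groups are cultures of 1 line. RNA-Seq was done on 9 cultures, 3 per group, given fresh medium with water as vehicle for 8 h, with 200 nM orexin A (OxA) for 3 h, or with 200 nM OxA for 8 h. No vehicle culture was taken at 3 h, so at 3 h the effect of OxA and the time since the medium change cannot be told apart, while at 8 h the times match.

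In neurons, calcium entry and kinase cascades that follow synaptic input switch on a first set of genes within minutes, without new protein synthesis. Some of these encode transcription factors, and others, the effectors, act directly at the synapse. *Npas4* encodes a transcription factor that responds to calcium and drives genes of inhibitory synapses and *Bdnf*. *Arc* encodes a capsid-like protein that promotes endocytosis of AMPA receptors, and *Homer1* a postsynaptic scaffold protein whose short form is made upon activity. *Nptx1* and *Nptx2* encode secreted pentraxins that cluster AMPA receptors, *Bdnf* a neurotrophin, *Nrn1* the membrane-anchored neuritin that promotes neurite growth, *Plk2* and *Plk3* polo-like kinases that respond to stimulation, and *Pcdh8* (arcadlin) a protocadherin that takes N-cadherin off the synaptic surface. The OX1 receptor couples to Gq and raises intracellular calcium, and the comparisons ask which of these genes respond to it in a hypothalamic line, and for how long.

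Each culture had between 16217786 and 20445364 counts on genes. Of 8 neuronal markers, 6 had a mean of 2 TPM (a level scaled by transcript length and library size) or more in vehicle-treated cells, among them *Gnrh1* at 3924 ± 304 TPM (SD, n = 3 cultures), while *Snap25* (0.109 TPM) and *Stmn2* (0.019 TPM) were close to absent. Such a level was reached by 0 of 5 astrocyte markers, 1 of 5 microglia markers (*Tmem119*, 5.22 TPM), 0 of 4 endothelial markers and 1 of 4 fibroblast markers (*Col1a1*, 7.52 TPM). The summed level of the microglia markers was 5.12 to 6.24 TPM in vehicle, 3.58 to 4.82 TPM at 3 h and 2.42 to 3.66 TPM at 8 h of OxA, nearly all of it *Tmem119*. Of the 6 neuronal markers that could be tested, 0 were higher and 2 lower at each time (edgeR's test described below). Of all genes tested, 20.2% were higher and 18.7% lower at 3 h, and 15.3% and 13.1% at 8 h. The log2 fold change (log2FC) of *Map2* was -0.28 at 3 h (adjusted p = 0.000379) and -0.44 at 8 h (adjusted p = 6.59e-06), that of *Tubb3* -0.36 at 3 h (adjusted p = 0.000463), and that of *Gnrh1* -0.35 at 8 h (SE 0.049, adjusted p = 1.73e-05). Among the markers of other cell types *Tmem119* (-0.91, adjusted p = 0.000375) and the fibroblast marker *Pdgfra* (-0.57, adjusted p = 0.00321) were lower at 8 h, and the endothelial marker *Cdh5*, at 0.216 TPM in vehicle, was higher (1.34, adjusted p = 0.00981). The part of these shifts in the results below was not tested, and in bulk RNA fewer cells of a type and less RNA per cell cannot be told apart.

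*Arc* was the highest of the 10 genes in vehicle-treated cells, at 28.0, 33.1 and 36.4 TPM in the 3 cultures, and made up 44.4% of their summed TPM. *Nrn1* (11.5 ± 0.926 TPM) and *Homer1* (10.2 ± 1.02 TPM) came next and overlapped each other, followed by *Plk3* (8.83 ± 0.137 TPM) and *Plk2* (7.11 ± 1.00 TPM), whose cultures did not overlap. *Npas4* (1.69 ± 0.744 TPM) and *Nptx1* (1.05 ± 0.122 TPM) overlapped, and *Bdnf* (0.257 ± 0.0597 TPM) lay below both. After 3 h of OxA the summed level of the 10 genes rose from 73.2 ± 5.22 to 293 ± 20.5 TPM and *Arc*, at 192 ± 19.5 TPM, made up 65.5% of it. At 8 h the sum was 118 ± 12.5 TPM and the share of *Arc* 43.9%. *Plk2* went from the fifth place in vehicle to the second at 3 h, where its 3 cultures (24.6 to 30.5 TPM) lay above all those of *Homer1* (19.7 to 21.3 TPM). At 8 h *Plk2*, *Nrn1* and *Homer1* overlapped in that order, at means of 15.4, 14.5 and 13.8 TPM.

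**Figure D1:**
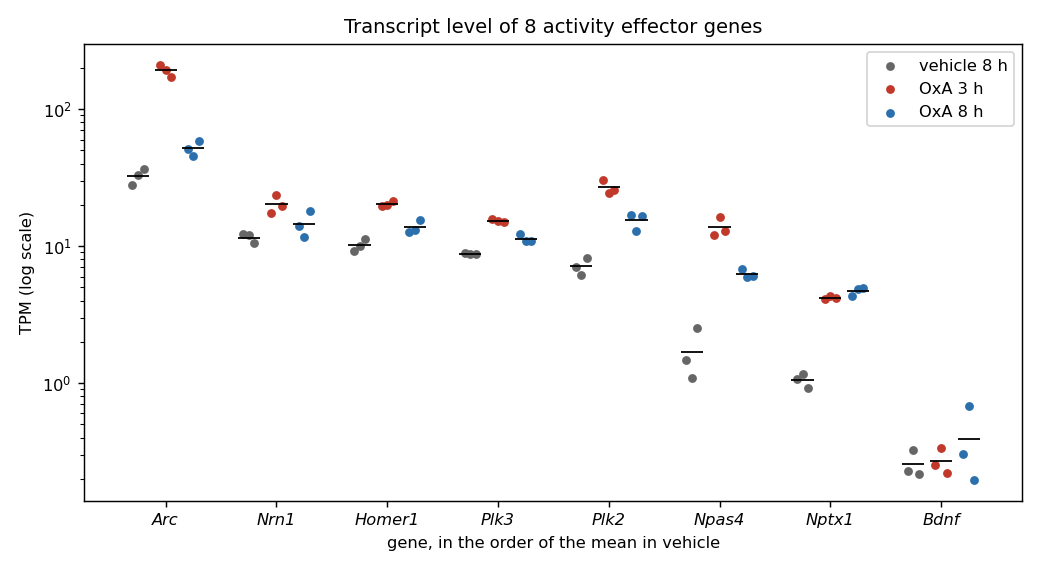
Transcript level of 8 genes in TPM on a log scale, by group, with 1 point per culture and a line at the mean of 3 cultures. *Arc* is the highest gene in each group and reaches 192 TPM at 3 h of OxA, while *Bdnf* stays under 1 TPM in all 9 cultures. *Nptx2* and *Pcdh8*, at or close to 0, are not drawn.

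*Pcdh8*, on chromosome 14 from 79766775 to 79771312 (coordinates of GRCm38, which is mm10, as annotated by GENCODE M21), had no counts in any of the 9 cultures. A count of 0 allows up to 3 counts per culture, or 0.147 to 0.185 CPM (counts scaled to the library's total), with counting error alone considered. *Nptx2*, on chromosome 5 from 144545902 to 144557478, had totals of 2 counts in vehicle, 2 at 3 h and 1 at 8 h over 3 cultures each. Both were under the count filter, so 8 of the 10 genes were tested, and a response of either was not detectable at this depth.

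Promoters of some of these genes carry the cyclic AMP response element (CRE), the site of the activity-regulated factor CREB. RefSeq windows from 250 bases before to 50 after the transcription start were at hand for 6 of the 10 genes (13 windows, of which 7 belong to *Bdnf*). *Arc*, *Nptx1*, *Nptx2* and *Nrn1* had no window. The search therefore leaves out *Arc*, *Nptx1* and *Nrn1*, which rose at 3 h, and does not tell what all genes that rose share. The windows were searched on both strands for the full CRE TGACGTCA, its first part TGACG (also contained in the full CRE), the AP-1 site TGANTCA, the EGR site GCGNGGGCG, the E-box CACGTG, the NPAS4 site TCGTG, the TATA box TATAAA and the CArG box. The 250 bases before the start are shown for the 4 genes with a window that rose at 3 h, since each of them holds TGACG, with TGACG on either strand and the full CRE in capitals. The sequences shown were thus picked by both rise and match, and do not tell whether TGACG goes with a rise. Matches in the windows of *Bdnf*, 1 of which also holds TGACG, and of *Pcdh8* are given without the sequence.
Npas4: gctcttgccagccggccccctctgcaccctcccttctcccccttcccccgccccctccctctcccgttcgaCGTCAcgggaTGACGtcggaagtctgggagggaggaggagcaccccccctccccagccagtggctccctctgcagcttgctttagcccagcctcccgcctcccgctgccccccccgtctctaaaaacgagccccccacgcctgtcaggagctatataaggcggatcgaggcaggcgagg
Homer1: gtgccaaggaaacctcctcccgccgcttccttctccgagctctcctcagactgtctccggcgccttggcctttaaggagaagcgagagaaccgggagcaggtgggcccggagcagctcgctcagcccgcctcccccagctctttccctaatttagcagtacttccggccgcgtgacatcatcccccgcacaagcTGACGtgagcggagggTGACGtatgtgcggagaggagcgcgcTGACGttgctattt
Plk2: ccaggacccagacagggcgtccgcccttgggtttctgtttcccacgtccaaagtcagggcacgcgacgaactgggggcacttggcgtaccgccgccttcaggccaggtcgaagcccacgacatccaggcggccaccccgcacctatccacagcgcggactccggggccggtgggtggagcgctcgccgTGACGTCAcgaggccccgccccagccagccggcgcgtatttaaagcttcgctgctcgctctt
Plk3: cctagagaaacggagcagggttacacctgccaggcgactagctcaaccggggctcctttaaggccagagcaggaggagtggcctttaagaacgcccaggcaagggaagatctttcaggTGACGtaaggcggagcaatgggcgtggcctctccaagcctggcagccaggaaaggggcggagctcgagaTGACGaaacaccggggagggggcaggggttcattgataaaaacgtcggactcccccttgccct
These stretches lie at chr19:4989972-4990221 (minus strand), chr13:93303507-93303756 (plus), chr13:110394794-110395043 (plus) and chr4:117133964-117134213 (minus) of GRCm38.p6. *Plk2* held the full CRE, with its first base at position -62 from the start, and 1.79% of all 32851 windows hold one. TGACG occurred in 5 of the 13 windows of these genes, against 20.8% of all windows. *Homer1* had it at positions -56, -40 and -14, *Npas4* at -179 on the reverse and at -169 on the forward strand, and *Plk3* at -132 and -63. The other start of *Homer1* had none, and among the windows of *Bdnf* 1 held it, at -35 on the reverse strand. TCGTG was found in 4 windows (3 of *Bdnf* and that of *Plk2*; 16.0% of all windows), the AP-1 site in 1 of *Bdnf* (7.81%), and TATAAA in that of *Pcdh8* (13.6%). The EGR site (5.55%), the E-box (7.15%) and the CArG box (1.63%) had no match. These are matches of letters and no measure of binding.

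After 3 h of OxA, 7 of the 8 genes tested were higher than in vehicle-treated cells and 0 were lower, and 5 of them rose 2-fold or more. *Npas4* rose most, then *Arc*, *Nptx1*, *Plk2*, *Homer1*, *Nrn1* and *Plk3*, and *Bdnf* alone did not pass the test. Higher and lower here mean an adjusted p below 0.05 (edgeR's quasi-likelihood test, Benjamini-Hochberg adjustment over all genes tested). In this sense 20.2% of the 15352 genes tested at 3 h were higher and 18.7% lower (3104 and 2869 genes, and 2426 and 3719 with upper-quartile scaling), and 2.77% rose with a log2FC over 1. The median log2FC of the 8 genes was 1.53, against -0.0040 over all genes tested. The 7 genes that rose were those whose cultures did not overlap between the groups, as was true of 48.1% of all genes tested. The study names *Arc* and *Homer1* among its findings, so these are not independent evidence of a direction.

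*Npas4*, the transcription factor of the set (chromosome 19, 4984355 to 4990316), had 39.0, 27.6 and 65.8 normalized counts in the vehicle cultures (raw counts scaled to a common library size by TMM) and 336, 448 and 344 after 3 h of OxA. The lowest OxA culture was far above the highest vehicle culture. The log2FC was 3.09 (SE 0.22, adjusted p = 3.16e-07), an 8.52-fold rise, and 0.221% of the genes tested had a larger one. *Arc* (chromosome 15, 74669083 to 74672570) had 689.8, 787 and 884 counts in vehicle and 5478, 4920.4 and 4318 at 3 h. All 3 OxA cultures were above all 3 vehicle cultures, with a log2FC of 2.64 (SE 0.11, adjusted p = 6.65e-07). *Homer1* (chromosome 13, 93299635 to 93405129) went from 780.2, 825 and 940.4 to 1760.3, 1756 and 1834 counts. Its log2FC of 1.08 (SE 0.062, adjusted p = 2.46e-12) was smaller than that of *Arc*, and again the groups did not overlap. The counts are per gene, so the short activity-dependent form of *Homer1* and the long forms cannot be told apart. *Gm47075* and *Gm47088* overlap *Homer1* on the same strand and are not among the genes counted. Whether their reads enter its count was not tested.

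**Figure D2:**
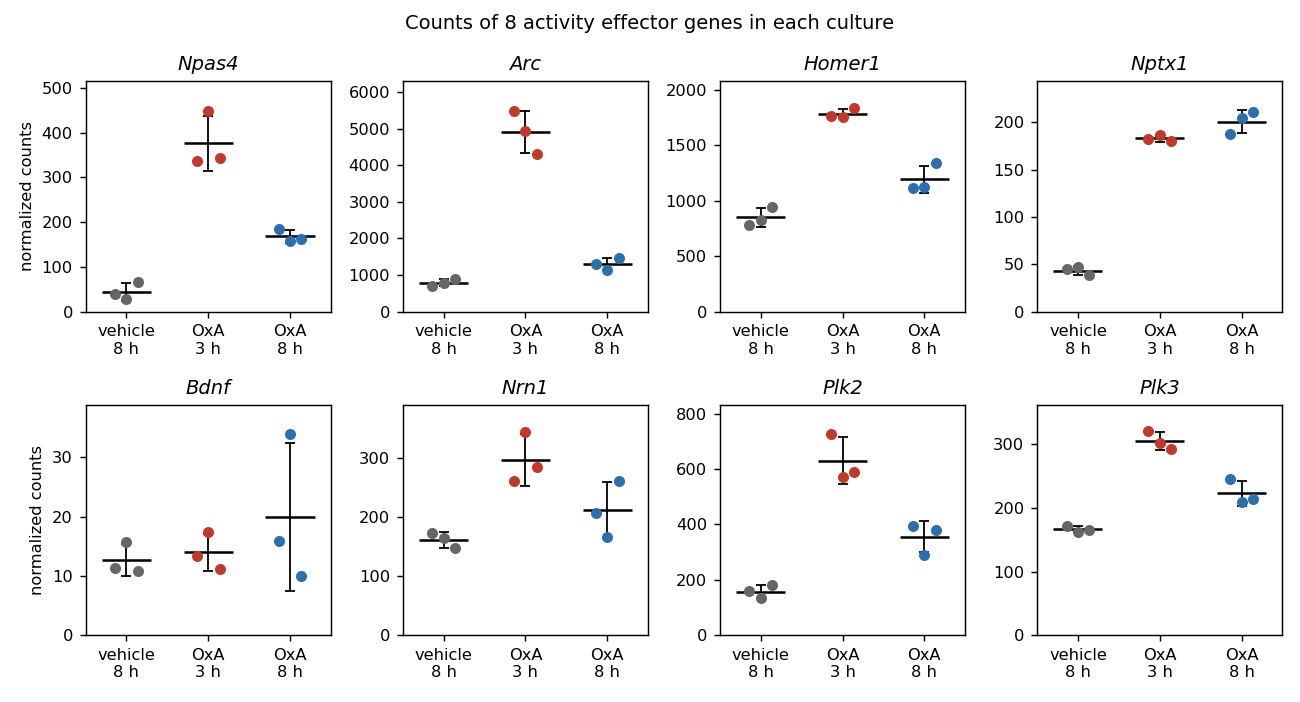
Normalized counts of the 8 genes tested, 1 panel per gene with its own axis from 0, with 1 point per culture, a line at the mean and bars of 1 SD (n = 3 cultures). For 7 genes the 3 h OxA cultures lie above all vehicle cultures. For *Nptx1* the 8 h cultures, at 188 to 211 counts, lie above the 3 h ones at 180.2 to 187.

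Of the secreted and membrane-anchored proteins, *Nptx1* (chromosome 11, 119538719 to 119547753) had 44.7, 47.3 and 38.3 normalized counts in vehicle and 182, 187 and 180.2 at 3 h. The log2FC was 2.08 (SE 0.15, adjusted p = 7.27e-11), while the other pentraxin, *Nptx2*, was hardly counted at all. *Nrn1* (chromosome 13, 36725361 to 36735131) had 173, 165 and 147 counts in vehicle and 260.4, 344 and 284 at 3 h. The groups did not overlap, and the log2FC was 0.88 (SE 0.11, adjusted p = 1.38e-06). *Fars2*, which overlaps *Nrn1* on the other strand, had a log2FC of -0.22 (SE 0.098, adjusted p = 0.0759). *Bdnf* (chromosome 2, 109674700 to 109727007) had raw counts of 12, 16 and 11 in vehicle and again 12, 16 and 11 at 3 h. Its log2FC was 0.14 (95% interval -0.60 to 0.89, adjusted p = 0.792), and the interval includes both 0 and a rise as large as that of *Nrn1*. Without 3 h OxA replicate 2 the value was -0.049.

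The kinases *Plk2* and *Plk3* both rose. *Plk2* (chromosome 13, 110395046 to 110400844) had 159, 134 and 182 normalized counts in vehicle and 726, 572 and 588 at 3 h, a log2FC of 1.99 (SE 0.11, adjusted p = 4.44e-12). *Plk3* (chromosome 4, 117128655 to 117133963) had 172, 163 and 165 counts in vehicle and 321, 302 and 292 at 3 h. Its groups did not overlap either, at a log2FC of 0.87 (SE 0.097, adjusted p = 1.32e-07). Per length, *Plk2* was below *Plk3* in vehicle and at 3 h above it, at 26.9 ± 3.19 against 15.4 ± 0.466 TPM, with no overlap of the cultures. *Tctex1d4*, which overlaps *Plk3* on the other strand, had 0 to 2 counts per culture.

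After 8 h of OxA, 6 of the 8 genes tested were above time-matched vehicle and 0 were below, 3 of them 2-fold or more (*Nptx1*, *Npas4* and *Plk2*). At this time 15.3% of 15407 genes tested were higher and 13.1% lower (2359 and 2018 genes, and 1994 and 2515 with upper-quartile scaling), and 1.25% rose with a log2FC over 1. The median log2FC was 0.70 for the 8 genes and -0.0081 for all genes tested. The cultures of 6 of them did not overlap with vehicle, as was true of 41.2% of all genes tested. The order was no longer that of 3 h, with *Nptx1* first, at 188, 204 and 211 normalized counts. Its log2FC of 2.20 (SE 0.14, adjusted p = 3.67e-11) was exceeded by 0.318% of the genes tested, against 0.664% at 3 h. The first place was not firm, since its 95% interval (1.90 to 2.49) overlapped that of *Npas4* (1.50 to 2.36). Without vehicle replicate 3 *Npas4* came first, at 2.34 against 2.12 for *Nptx1*.

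*Npas4* had 185, 158 and 163 normalized counts at 8 h, above all vehicle cultures, and a log2FC of 1.93 (SE 0.20, adjusted p = 1.34e-06). *Plk2* had 396, 291 and 381 counts, a log2FC of 1.16 (SE 0.13, adjusted p = 1.63e-06). *Arc*, with 1304, 1137 and 1479.9 counts, was still above every vehicle culture but by less than 2-fold (log2FC 0.72, SE 0.12, adjusted p = 0.00233). *Homer1* had 1112, 1124 and 1335 counts (log2FC 0.48, SE 0.078, adjusted p = 0.000212) and *Plk3* 245, 209 and 214 (log2FC 0.41, SE 0.11, adjusted p = 0.00472). In both of these the lowest OxA culture exceeded the highest vehicle culture.

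*Nrn1* and *Bdnf* did not pass the test at 8 h. *Nrn1* had 206, 166 and 261 normalized counts, and OxA replicate 2 lay within the range of vehicle. Its log2FC was 0.37 (95% interval 0.078 to 0.66, adjusted p = 0.0536), and it passed without 8 h OxA replicate 2 (log2FC 0.52, adjusted p = 0.00579), without the filter on low counts (adjusted p = 0.0108) and with the replicate number as a block (log2FC 0.36, adjusted p = 0.0152). The raw counts of *Bdnf* were 18, 38 and 9, so that OxA replicate 2 was far above vehicle and replicate 3 below it. Its log2FC was 0.68 (95% interval -0.13 to 1.50, adjusted p = 0.204), and without that replicate 0.062. *Bdnf* has several starts and 11 annotated transcripts, which counts per gene do not separate.

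Between 3 and 8 h of OxA, 6 of the 8 genes tested fell and 0 rose, where 14.3% of 15278 genes tested were lower at 8 h and 13.7% higher (2181 and 2096 genes, and 1887 and 2518 with upper-quartile scaling). *Arc* fell most, with a log2FC of -1.91 (SE 0.12, adjusted p = 3.34e-05), its mean going from 4905 ± 580.1 to 1307 ± 172 normalized counts. *Npas4* fell by 1.15 (SE 0.11, adjusted p = 1.46e-07), *Plk2* by 0.82 (SE 0.12, adjusted p = 0.00015), *Homer1* by 0.59 (SE 0.062, adjusted p = 3.69e-07) and *Plk3* by 0.45 (SE 0.096, adjusted p = 0.00111). *Nrn1* fell by 0.50 (SE 0.14, adjusted p = 0.0166), a call that was lost without 3 h replicate 2 (adjusted p = 0.0617), 8 h replicate 1 (0.0628) or 8 h replicate 2 (0.0549). *Nptx1* had a log2FC of 0.13 (95% interval -0.089 to 0.35, adjusted p = 0.397), with the 8 h cultures all slightly above those of 3 h, and *Bdnf* one of 0.55 (adjusted p = 0.333). The cultures of 6 of the 8 genes did not overlap between the times, as was true of 40.5% of all genes tested. *Nptx1* is among these 6, while *Nrn1*, which passed the test, overlapped by 1 culture at each time.

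**Figure D3:**
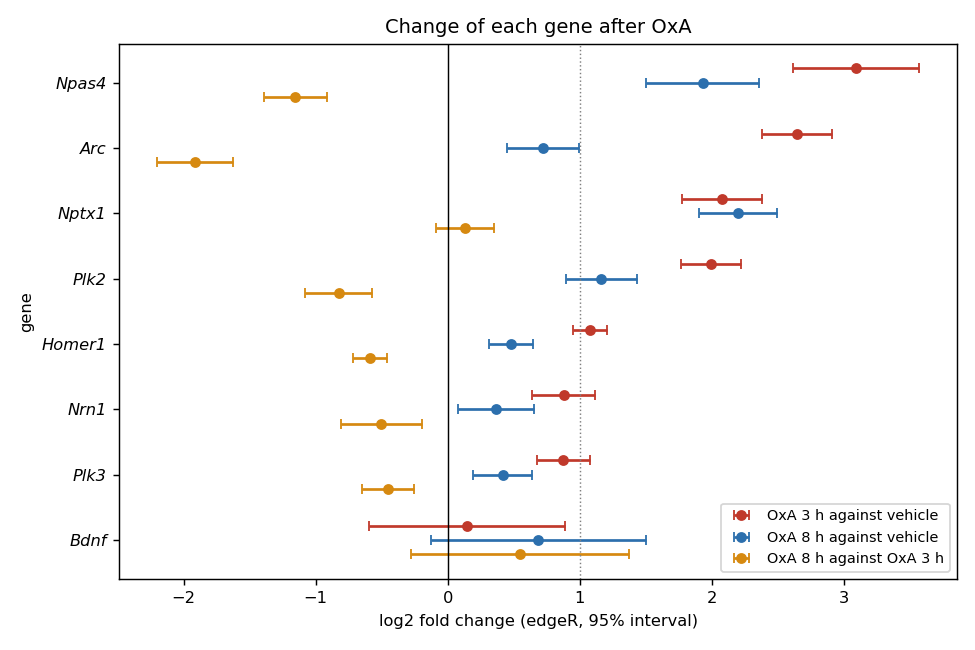
Log2 fold change of the 8 genes tested with its 95% interval from edgeR (3 cultures per group) in the 3 comparisons, with a dotted line at a 2-fold rise. *Arc* lies at 2.64 at 3 h and 0.72 at 8 h, while *Nptx1* lies at 2.08 and 2.20, and the intervals of *Bdnf* include 0 in each comparison. The first 2 comparisons share the vehicle cultures.

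The share of the 3 h rise that was left at 8 h, on mean normalized counts, was 12.6% for *Arc* (10.5 to 14.7% with each culture left out in turn), the lowest of the 7 genes that rose. *Homer1* kept 36.5% (28.8 to 40.8%), *Npas4* 37.5% (35.1 to 42.1%), *Plk3* 40.4% (32.4 to 45.5%) and *Plk2* 42.0% (37.8 to 48.9%). *Nrn1* had 36.8%, with a range from 18.3% without 8 h replicate 3 to 53.4% without 8 h replicate 2. *Nptx1* stood at 113% (109 to 118%), so that its count at 8 h was not below that at 3 h in any of these settings.

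Other genes were compared by the distance between their log2FC at 3 and 8 h and those of each gene (11775 genes that averaged 50 or more normalized counts over the 9 cultures). The nearest to *Npas4* was *Nr4a1*, an orphan nuclear receptor and immediate early gene (3.19 at 3 h and 1.85 at 8 h, distance 0.121). The nearest to *Arc* was *Tec*, a nonreceptor tyrosine kinase gene (2.67 and 0.73), and 2 genes lay within 0.25 of it. For *Plk2* it was *Frmd4a*, a scaffold of cell polarity (1.95 and 1.20). *Homer1* and *Nrn1* had 109 and 194 genes within 0.25, the nearest being *Midn* (1.06 and 0.46) and *Il17ra* (0.87 and 0.38). *Plk3* also had 194 genes within that distance, the nearest *Gm42941*. *Nptx1* had 0 within it, and its nearest gene, *Igsf11*, a synaptic adhesion gene, lay at 1.77 and 2.06 (distance 0.332).

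Genes known to respond to neuronal activity alongside these were also counted. The lists here and below share some genes, so their counts are not separate. *Nptxr* is in the other effectors, the binding partners and the relatives. *Mef2d* is in the transcription factors and the upstream genes, and *Homer2* and *Homer3* are in the binding partners and the relatives. Of 20 transcription factors induced by activity, all tested at 3 h, 18 rose and 0 fell, and at 8 h 11 of 19 rose and 0 fell, where 20.2% and 15.3% of all genes tested were higher. *Fosb*, an AP-1 subunit, had 48.8 ± 16.0 normalized counts in vehicle, 541 ± 69.5 after 3 h and 113 ± 18.6 after 8 h (log2FC 3.48 and 1.20). *Egr2*, a zinc finger factor, rose by 2.53 and 1.39, and *Maff*, a small Maf protein, by 3.03 and 1.67. *Nr4a2* (log2FC -0.23, adjusted p = 0.681) and *Crem* (-0.049, adjusted p = 0.811) did not pass at 3 h. Of 20 other effectors, 12 were tested at 3 h, where 10 rose and 0 fell, and 13 at 8 h, where 9 rose and 0 fell. *Sgk1*, a kinase induced by serum and glucocorticoids, rose by 3.35 and 2.20. *Dusp6*, a phosphatase of ERK, rose by 2.02 and 1.60. *Vgf*, a neuropeptide precursor, went from 611 ± 82.6 to 2265 ± 460.4 and 4877 ± 464 counts. The median log2FC at 3 h was 1.50 for the transcription factors and 1.23 for the other effectors. Many of these genes were named by the study from these samples, among them *Fos*, *Fosb*, *Fosl2*, *Junb*, *Egr1*, *Egr2*, *Egr3*, *Nr4a1*, *Nr4a3*, *Klf4* and *Sgk1*. The lists were also chosen with earlier results of these data known. The counts of these 2 lists are therefore not independent evidence of a direction.

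Genes of proteins that bind the effectors were counted in the same way. Of 24 partners and receptors, 17 were tested at 3 h, where 4 rose and 2 fell (20.2% and 18.7% of all genes tested), and 18 at 8 h, where 3 rose and 3 fell (15.3% and 13.1% of all genes). The median log2FC of the list was 0.020 and -0.039. At each time 1 gene of the list rose 2-fold or more, *Sh3gl3*, which had only 11.3 ± 4.66 normalized counts in vehicle. Its log2FC was 1.33 at 3 h (adjusted p = 0.0028) and 1.16 at 8 h (adjusted p = 0.0132). *Nptxr*, the membrane-bound pentraxin that joins NPTX1 at the synapse, went from 2180.4 ± 18.6 normalized counts to 2780.0 ± 282 and 2896 ± 116, a rise of 0.35 (SE 0.055, adjusted p = 2.23e-05) and 0.40 on the log2 scale. *Furin*, a protease that cleaves the BDNF precursor, rose by 0.49 at 3 h and had a log2FC of 0.14 at 8 h (adjusted p = 0.0528). *Shank2*, a scaffold that binds Homer proteins, fell by 0.60 at 8 h, its log2FC at 3 h being 0.020 (adjusted p = 0.882), and *Sort1*, a sorting receptor for BDNF, fell by 0.27 at 8 h. *Arnt*, a dimer partner of proteins of the NPAS4 class, fell by 0.24 at 3 h (adjusted p = 0.00689). At 8 h its log2FC was -0.125 (adjusted p = 0.143). The related *Arnt2*, in the same list, did not pass at 3 h (log2FC 0.059, adjusted p = 0.622) or at 8 h (0.077, adjusted p = 0.496).

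**Figure D4:**
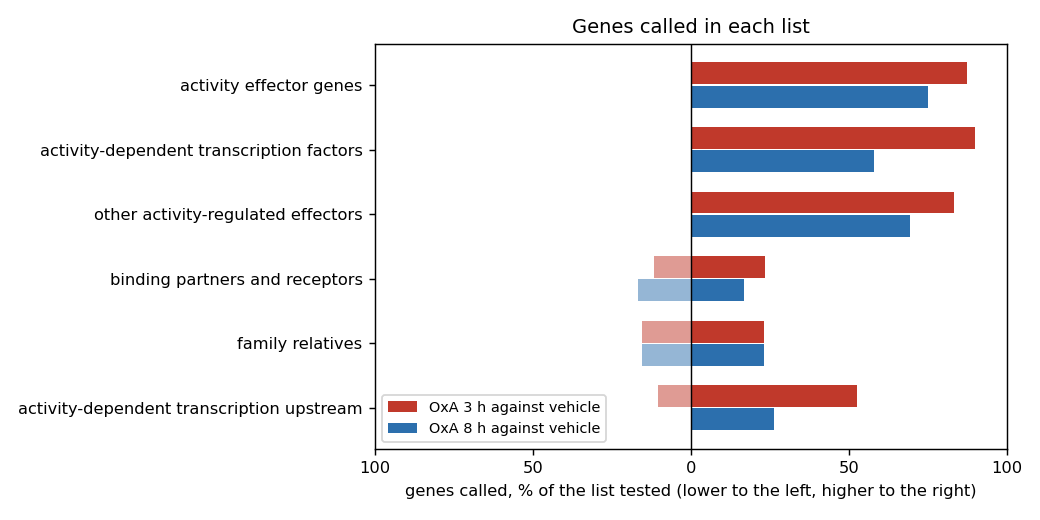
Percent of the tested genes of each list that were higher (bars to the right) or lower (paler bars to the left) than vehicle at an adjusted p under 0.05, at 3 h and at 8 h of OxA. Of the effector genes described here 7 of 8 were higher at 3 h, of the transcription factors 18 of 20, and of the binding partners 4 of 17.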

How the data were processed

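RNA-Seq counts of 9 cultures were analyzed. The authors trimmed reads with Trimmomatic (0.3 in the deposited processing notes), used STAR 2.5.2a for alignment to mm10, and obtained raw counts for each gene symbol from HTSeq 0.6.0. All tests used these deposited counts. Levels were compared between genes on the TPM scale, as deposited by the authors, with gene lengths not given in the sources used here. The annotation and strand setting of the counting are not given in the sources used here either. The tables of the authors' comparisons from DESeq2 1.10.1 (fold changes and p-values) and their normalized counts were not used.

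Groups came from the sample titles. Each comparison used its 2 groups of 3 in edgeR 4.0.16 (R 4.3.3), with filterByExpr (minimum count 10), TMM factors (0.969 to 1.05 over the 9 libraries), robust quasi-likelihood and Benjamini-Hochberg adjustment. SE is the coefficient over the square root of F. The fitting code was first run on simulated counts with known changes. Alternatives were upper-quartile and RLE scaling, DESeq2 1.42.0, no filter on low counts, 1 fit of all libraries, a replicate block, and each library left out. The genes and lists were chosen with earlier results of these data known. Named genes were all 10, per list up to 3 with the largest called changes at each time (mean of at least 50 normalized counts), markers of other cell types of at least 2 TPM, and the nearest gene to each. The neuronal markers, *Pdgfra*, *Cdh5*, *Nr4a2*, *Crem*, *Arnt2*, *Sh3gl3* and the genes overlapping *Nrn1* and *Plk3* fall outside this rule and were chosen after their values were seen. The genes overlapping *Homer1* also fall outside it and have no counts. The oligodendrocyte markers are not reported here.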

Additional observations from a re-analysis of the deposited data

Results flagged for a closer look

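For 6 genes the change against vehicle differed between the times, by the test of 8 h against 3 h of OxA (edgeR's quasi-likelihood test). The log2FC of 8 h against 3 h in that fit was -1.91 for *Arc*, -1.15 for *Npas4*, -0.825 for *Plk2*, -0.59 for *Homer1*, -0.50 for *Nrn1* and -0.45 for *Plk3*. The 3 h cultures had no vehicle of their own time, so time since the medium change and OxA cannot be told apart in these differences.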

How the results depend on the processing

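The number of effector genes called stayed at 7 at 3 h under every alternative run. It was 6 or 7 at 8 h and 5 or 6 between the times, and the count over all genes stayed within 1.5 times its value in each. Upper-quartile scaling moved the median log2FC of all genes at 3 h to -0.064. With each library left out, all genes called ranged from 5016 to 5776 at 3 h, 3376 to 4260 at 8 h and 3371 to 4166 between the times. *Bdnf*, called in no comparison, changed sign without 3 h OxA replicate 2 (log2FC -0.049 at 3 h) and without 8 h OxA replicate 2 (-0.080 between the times), its log2FC with each library left out reaching from -0.049 to 0.33 and from -0.080 to 0.82. *Nrn1* was the gene whose call changed, at 8 h and between the times, as given above. With a replicate block there were 7, 7 and 6 effector genes called and 6500 genes in all at 3 h, 5558 at 8 h and 5348 between the times. For *Arc* the adjusted p with the block (edgeR's quasi-likelihood test) was 0.00478 at 3 h, 1.28e-11 at 8 h and 0.0101 between the times. Without the block it was 6.65e-07, 0.00233 and 3.34e-05. The paper says that the process was repeated to give n = 3 per condition, and the titles number the replicates. The sources do not say that a replicate number marks a shared run, and the main fits took no account of it. Deviations of same-numbered cultures from the group means correlated at 0.0076 to 0.162, with 3 of 9 pairs over 0.1. The 18 pairs with different numbers had -0.117 to 0.0698. Of the libraries, 7 of 9 correlated best with their own number, a hint of pairing by run. Low counts limit *Bdnf*, *Nptx2* and *Pcdh8*.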

Other observations

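Relatives of the effector genes were counted as well. Of 18 listed, 13 were tested at each time, and 3 rose and 2 fell at both 3 h and 8 h, where 20.2% of all genes tested were higher and 18.7% lower at 3 h, and 15.3% and 13.1% at 8 h. *Npas2*, a clock factor of the same protein class as *Npas4*, went from 317 ± 37.1 normalized counts in vehicle to 418 ± 36.8 at 3 h and 624 ± 9.68 at 8 h (SD, n = 3 cultures). Its log2FC was 0.40 (SE 0.092, adjusted p = 0.00137 by edgeR) and 0.97 (SE 0.080, adjusted p = 2.58e-09). *Pcdh19*, a protocadherin of the delta class, had a log2FC of -0.070 at 3 h (adjusted p = 0.536) and rose by 0.57 at 8 h (adjusted p = 2.59e-07), while *Pcdh18* fell by 0.50 and 0.29. *Ntf5*, which encodes neurotrophin 4, fell by 0.53 at 8 h (SE 0.19, adjusted p = 0.0356).

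Of 20 genes that act upstream of activity-dependent transcription, 19 were tested, of which 10 rose and 2 fell at 3 h and 5 rose and 0 fell at 8 h, beside 20.2% and 18.7% of all genes at 3 h and 15.3% and 13.1% at 8 h. *Srf*, the serum response factor, rose by 1.20 at 3 h and had a log2FC of 0.27 at 8 h (adjusted p = 0.11). *Camk2b*, a subunit of the calcium/calmodulin-dependent kinase II, rose by 0.51 at 3 h and by 1.19 at 8 h, and *Camk2d*, another subunit, by 0.81 and 0.72. *Mef2a* and *Mef2d*, factors that respond to calcium, rose by 0.74 and 0.72 at 3 h and by 0.30 and 0.43 at 8 h.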
